A study of Homo sapiens with 12 samples.

Results

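The plasminogen activators PLAU and PLAT, the urokinase receptor gene PLAUR and the serpin genes SERPINE2, SERPINB1, SERPINB6 and SERPINA1 were followed in A549 cells after siRNA knockdown of YAP and TAZ. These 7 genes were taken by symbol from the 60617 genes listed for every library. PLAU and PLAUR transcripts were lower with both siRNA combinations, at 0.377 and 0.582 times the siCo level with siYAP/TAZ#1 and at 0.496 and 0.663 times with siYAP/TAZ#2. PLAT and SERPINB1 were higher with both, SERPINE2 was higher with siYAP/TAZ#2, SERPINB6 did not pass the test with either, and SERPINA1 was at the limit of detection.

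A549 is a human lung adenocarcinoma line with features of alveolar epithelium, and YAP and TAZ (gene WWTR1) are transcriptional coactivators restrained by the Hippo pathway. RNA was sequenced from 3 groups of 4 libraries, taken 24 hours after transfection: siYAP/TAZ#1, siYAP/TAZ#2 and the control siRNA, siCo. The labels code the treatments as Y1T2 for siYAP/TAZ#1, Y2T3 for siYAP/TAZ#2 and NTC for siCo, and carry no further agent or allele. The series names the 4 libraries of a group biological replicates without saying how the cultures were kept apart, so p-values measure the spread between these libraries. Measurements on 1 cell line cannot be read as those of other lung cells.

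Plasminogen is a circulating zymogen that urokinase (PLAU) and tissue-type plasminogen activator (PLAT) cleave to plasmin, a broad protease that dissolves fibrin and degrades matrix proteins. The receptor encoded by PLAUR holds urokinase at the cell surface, where plasmin formation becomes local. Serpins are suicide inhibitors: the target protease cleaves a reactive loop and stays trapped in a covalent complex. Urokinase and its receptor are studied in lung cancer for their part in cell migration and invasion.

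Of the sequences before RefSeq transcript starts of these genes, 4 stretches are shown. They belong to PLAU and PLAUR, which fell, and to SERPINB1 and SERPINE2, which did not. The PLAU, PLAUR and SERPINE2 stretches lie inside the gene coordinates given below. The 4 stretches are parts of the windows and carry no contrast of letters between these genes. They are RefSeq sequences of GRCh38.p14, 5′ to 3′ on the strand of the gene. Capitals mark letters that match the AP-1 motif TGANTCA in PLAUR and the SP1 motif GGGCGG, or CCGCCC on the other strand, in PLAU and SERPINE2. The PLAUR stretch is chr19:43670337-43670366 on the minus strand, from 197 to 168 bases before the transcript start. The PLAU stretch is chr10:73911066-73911095 on the plus strand, from 66 to 37 bases before the start. The SERPINB1 stretch is chr6:2842007-2842113 on the minus strand, from 250 to 144 bases before the start. The SERPINE2 stretch is chr2:224038805-224038890 on the minus strand, from 250 to 165 bases before the start.
PLAUR: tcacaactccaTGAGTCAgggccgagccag
PLAU: GGGCGGgagagggagGGGCGGcgccggggc
SERPINB1: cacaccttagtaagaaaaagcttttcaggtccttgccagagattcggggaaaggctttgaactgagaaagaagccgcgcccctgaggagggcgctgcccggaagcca
SERPINE2: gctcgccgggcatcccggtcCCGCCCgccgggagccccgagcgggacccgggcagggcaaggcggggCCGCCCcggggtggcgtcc

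From the RefSeq table, 12 windows of 250 bases before transcript starts were kept, for 6 of the 7 genes. Chromosome 8, which holds PLAT, was left out of these windows. All windows but the SERPINE2 window from chr2:224031479 touched an annotated exon, so the motif counts do not describe upstream sequence alone. The letters GGAATG or CATTCC, the core of the motif of TEAD factors, through which YAP and TAZ bind DNA, were in 0 of the 12 windows and in 11.89% of all 35116 windows in the table. The AP-1 letters were in the PLAUR window shown and in 6.57% of all windows. The SP1 letters were in 8 of the 12 windows and in 42.64% of all windows. The 12 windows are not independent: those of SERPINB6 from 2971290 and 2971277 overlap and share 1 SP1 match, counted in both. Outside the stretches shown, the SERPINB1 window held them 74 and 69 bases before the start. The PLAU window held them once more from 40 bases, a match that runs past the end of the stretch shown and is not marked. None of the matches shown overlap, and a match is a description of the letters, not of binding. Absence of the TEAD letters concerns these windows alone.

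Library totals ran from 29.6 to 38.3 estimated counts in units of 1e6. Within siYAP/TAZ#2, replicate 1 stood apart, with a chi-square of counts over genes, divided by its degrees of freedom, that ran from 46.4 to 72.7 against the other 3 libraries and from 7.41 to 18.9 among those 3. Without it, 4224 genes were called higher and 4950 lower with siYAP/TAZ#1, against 3531 and 3999 with all libraries, and between the combinations 2287 were higher and 2840 lower, against 1493 and 1769. The calls of the 7 genes were the same without it, except that SERPINB6 gained one.

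YAP1 lay between 17.3 and 20.5 CPM (counts scaled to 1e6 per library after TMM) with siYAP/TAZ#1, between 16.5 and 19.1 CPM with siYAP/TAZ#2 and between 116 and 125 CPM with siCo. WWTR1 lay between 31.2 and 33.7 CPM with siYAP/TAZ#1, between 29.7 and 35.3 CPM with siYAP/TAZ#2 and between 230.0 and 254 CPM with siCo. Each combination thus carried the labelled loss of both transcripts, and neither gene differed between the combinations in edgeR's quasi-likelihood test (Benjamini-Hochberg adjusted p = 0.367 for YAP1 and 0.897 for WWTR1).

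All 6 markers of lung adenocarcinoma epithelium and all 5 of the NRF2 activity typical of A549 were detected. The epithelial markers summed to 5662 to 6367 CPM with siYAP/TAZ#1, 4652 to 7019 CPM with siYAP/TAZ#2 and 6750 to 7672 CPM with siCo. Among them KRT7 averaged 2330 CPM with siYAP/TAZ#1, 2028 CPM with siYAP/TAZ#2 and 3657 CPM with siCo. The mean of KRT18 was also lower with both combinations, while those of EPCAM, CDH1, KRT8 and KRT19 were higher. The NRF2 markers summed to 5454 to 5683 CPM with siYAP/TAZ#1, 5621 to 6196 CPM with siYAP/TAZ#2 and 4539 to 4595 CPM with siCo. Of the markers of other cell types, 5 of 6 for fibroblasts, 4 of 4 for endothelium, 4 of 5 for leukocytes and 3 of 4 for hepatocytes averaged under 1 CPM in every group. The remaining fibroblast marker, COL1A1, averaged 153 CPM with siYAP/TAZ#1, 117 CPM with siYAP/TAZ#2 and 110.0 CPM with siCo, and the fibroblast sum ran from 141 to 171, from 102 to 156 and from 105 to 117 CPM in siYAP/TAZ#1, siYAP/TAZ#2 and siCo. The leukocyte sum was 5.68 to 6.70 CPM with siYAP/TAZ#1, 6.32 to 9.35 CPM with siYAP/TAZ#2 and 2.45 to 2.86 CPM with siCo, nearly all of it CD14, while MPO was at 0 in all libraries. The part of these markers in the results was not tested. In bulk RNA, fewer cells of a type and less RNA per cell cannot be told apart.

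Expression was first compared between genes within libraries, on TPM (transcripts scaled to 1e6 per library), which are per length. In all 4 siCo libraries the order of TPM was PLAU, SERPINE2, PLAUR, SERPINB6, SERPINB1, PLAT and SERPINA1. SERPINE2 and PLAU had changed places in 4 of 4 libraries of siYAP/TAZ#1 and in 4 of 4 of siYAP/TAZ#2, and the rest of the order was the same in all 12 libraries. Each gene thus stood above the next in every library of its group.

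Rescaled to the total of protein-coding genes, TPM placed the genes over a wide range. PLAU averaged 80.1 ± 2.43 TPM with siYAP/TAZ#1, 103 ± 7.47 TPM with siYAP/TAZ#2 and 183 ± 5.64 TPM with siCo (SD, n = 4 each). PLAT, the other activator, averaged 4.65 TPM with siYAP/TAZ#1, 5.45 TPM with siYAP/TAZ#2 and 3.27 TPM with siCo. In siCo cells, 95.0% of the 19886 protein-coding genes lay below PLAU, 92.5% below SERPINE2 and 91.0% below PLAUR. SERPINB6 stood above 84.3% of coding genes there, SERPINB1 above 76.7%, PLAT above 43.4% and SERPINA1 above 24.6%.

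**Figure D1:**
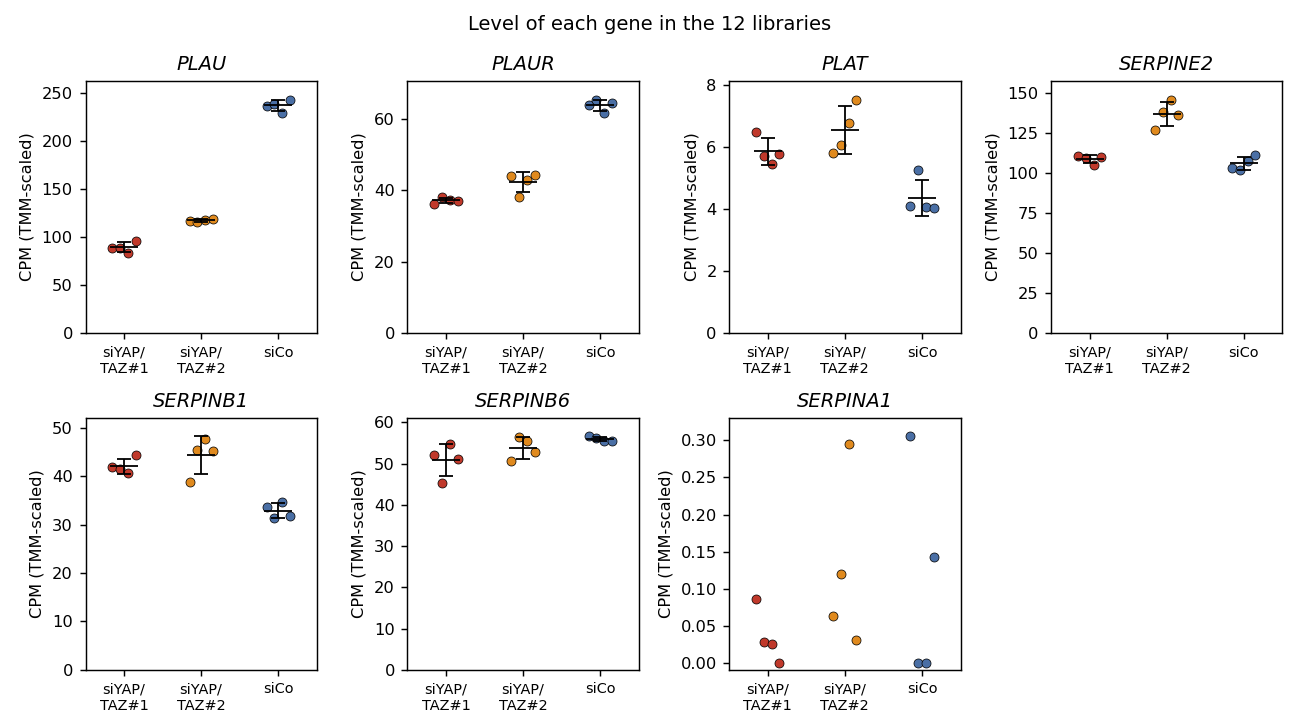
CPM after TMM scaling (y axis, linear from 0) of each of the 7 genes in the 12 libraries, grouped on the x axis. Points are libraries, and bars are the mean ± SD of 4 libraries (none for SERPINA1, which had few counts); PLAU and PLAUR points lie lower in both knockdown groups, and PLAT and SERPINB1 points lie higher.

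PLAU (ENSG00000122861, chromosome 10, 73909177 to 73917497, plus strand, GRCh38) encodes urokinase, a secreted serine protease. It measured 89.0, 88.6, 83.9 and 96.3 CPM in the siYAP/TAZ#1 libraries, 117, 116, 118 and 119 CPM in the siYAP/TAZ#2 libraries and 237, 239, 229.8 and 243 CPM in the siCo libraries. All 3 groups were separate, with siYAP/TAZ#1 lowest and siCo highest. In edgeR's quasi-likelihood test the log2 change from siCo was -1.41 ± 0.053 (SE) with siYAP/TAZ#1 (Benjamini-Hochberg adjusted p = 2.00e-11) and -1.01 ± 0.053 with siYAP/TAZ#2 (adjusted p = 6.00e-10).

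On the deposited TPM, as log2(TPM + 1), the median of all genes was 0.26 with siYAP/TAZ#1 and 0.33 with siYAP/TAZ#2. There PLAU changed by -0.94 with siYAP/TAZ#1 (limma, adjusted p = 0.0157; 0.0653 with no filter) and by -0.52 with siYAP/TAZ#2 (adjusted p = 0.114), where the call was lost. Rescaled to coding genes, the changes were -1.18 and -0.82 in those comparisons (limma, adjusted p = 6.49e-09 and 1.91e-07).

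Among all 21581 genes tested, 0.538% had a lower change than PLAU with siYAP/TAZ#1 and 2.11% with siYAP/TAZ#2. The fall was deeper with siYAP/TAZ#1, the difference between the combinations being -0.40 ± 0.053 on the log2 scale (edgeR, adjusted p = 4.79e-05), a call lost on log2(TPM + 1) at -0.42 (limma, adjusted p = 0.809). PLAU shares its locus with the antisense gene C10orf55, and whether counting used strand is not given in the sources used here, so reads of the pair cannot be told apart where they overlap. Counts assigned to C10orf55 equalled 0.717% of PLAU's with siYAP/TAZ#1, 0.4999% with siYAP/TAZ#2 and 0.485% with siCo.

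PLAUR (ENSG00000011422, chromosome 19, 43646095 to 43670547, minus strand) encodes the urokinase receptor, which is anchored to the membrane by a glycolipid. Its level was 36.2, 37.998, 37.3 and 37.1 CPM in the siYAP/TAZ#1 libraries, 43.9, 38.06, 42.9 and 44.2 CPM in the siYAP/TAZ#2 libraries and 63.9, 65.3, 61.6 and 64.3 CPM in the siCo libraries. The siCo libraries stood clear of both knockdown groups, whereas 1 siYAP/TAZ#2 library (replicate 2) lay almost at the highest siYAP/TAZ#1 library. The log2 change from siCo was -0.78 ± 0.058 with siYAP/TAZ#1 (edgeR, adjusted p = 3.76e-08) and -0.59 ± 0.058 with siYAP/TAZ#2 (adjusted p = 5.93e-07). On log2(TPM + 1) both calls were lost, at -0.37 with siYAP/TAZ#1 (limma, adjusted p = 0.291) and -0.13 with siYAP/TAZ#2 (adjusted p = 0.686). Rescaled to coding genes, TPM gave -0.61 and -0.42 in those comparisons (limma, adjusted p = 9.88e-07 and 2.42e-05).

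PLAUR also fell further with siYAP/TAZ#1 than with siYAP/TAZ#2, by -0.19 ± 0.058 (edgeR, adjusted p = 0.0393), but this call depended on both the settings and the libraries. With all libraries kept, it was lost with median ratio scaling (edgeR, adjusted p = 0.0524), no filter on low counts (0.211), only the 2 groups in the fit (0.0990), the replicate number as a block (0.0649) and on log2(TPM + 1) (limma, 1.00). It was also lost without siYAP/TAZ#1 replicate 1 (edgeR, adjusted p = 0.103), replicate 2 (0.0603), replicate 3 (0.0867) or replicate 4 (0.0832), and without siYAP/TAZ#2 replicate 3 (0.0945) or replicate 4 (0.122). The log2 difference lay between -0.24 and -0.17 whichever library was left out. RN7SL368P, a small RNA gene on the same strand inside PLAUR, averaged 6.25 estimated counts with siYAP/TAZ#1, 8.25 with siYAP/TAZ#2 and 10.0 with siCo.

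PLAT (ENSG00000104368, chromosome 8, 42175233 to 42207724, minus strand) encodes tissue-type plasminogen activator, best known for dissolving fibrin clots. It was a minor transcript, at 6.49, 5.69, 5.45 and 5.76 CPM in the siYAP/TAZ#1 libraries, 5.81, 6.05, 6.77 and 7.51 CPM in the siYAP/TAZ#2 libraries and 4.10, 5.24, 4.05 and 4.01 CPM in the siCo libraries. Every knockdown library was above every siCo library, and the knockdown groups overlapped each other. PLAT thus moved opposite to PLAU, with a log2 change of 0.42 ± 0.12 with siYAP/TAZ#1 (edgeR, adjusted p = 0.0101) and 0.59 ± 0.12 with siYAP/TAZ#2 (adjusted p = 0.000843). On log2(TPM + 1) the call with siYAP/TAZ#1 was lost (0.45; limma, adjusted p = 0.183). The combinations differed by -0.16 ± 0.11, which did not pass the test (edgeR, adjusted p = 0.435).

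SERPINE2 (ENSG00000135919, chromosome 2, 223975112 to 224039319, minus strand) encodes protease nexin-1, a secreted inhibitor of thrombin and urokinase. Its libraries read 110.2, 109, 105 and 110.1 CPM with siYAP/TAZ#1, 127, 138, 146 and 136 CPM with siYAP/TAZ#2 and 103, 102, 108 and 111 CPM with siCo. The siYAP/TAZ#2 libraries lay above all others, and the siYAP/TAZ#1 and siCo libraries overlapped. The log2 change was 0.04 ± 0.055 with siYAP/TAZ#1 (edgeR, adjusted p = 0.653) and 0.37 ± 0.055 with siYAP/TAZ#2 (adjusted p = 5.54e-05). The effects of the combinations differed by -0.33 ± 0.055 (edgeR, adjusted p = 0.000412), a call lost on log2(TPM + 1) (-0.39; limma, adjusted p = 0.712), where the change with siYAP/TAZ#2 was 0.67. Scaled by library size alone, SERPINE2 passed the test with siYAP/TAZ#1 too, at 0.21 (edgeR, adjusted p = 0.0249), on a scale where the median of all genes was itself 0.20.

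SERPINB1 (ENSG00000021355, chromosome 6, 2832332 to 2842006, minus strand) encodes a cytosolic serpin that inhibits neutrophil serine proteases such as elastase. It measured 41.9, 41.4, 40.7 and 44.3 CPM with siYAP/TAZ#1, 38.7, 45.5, 47.8 and 45.3 CPM with siYAP/TAZ#2 and 33.7, 31.3, 34.7 and 31.8 CPM with siCo. Both knockdown groups lay wholly above siCo and overlapped each other. The log2 change was 0.36 ± 0.069 with siYAP/TAZ#1 (edgeR, adjusted p = 0.000626) and 0.43 ± 0.069 with siYAP/TAZ#2 (adjusted p = 9.79e-05), and the difference between them, -0.08 ± 0.068, did not pass the test (adjusted p = 0.566). On log2(TPM + 1) the changes were 0.63, where the call was lost, with siYAP/TAZ#1 and 0.76 with siYAP/TAZ#2 (limma, adjusted p = 0.0701 and 0.0192).

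SERPINB6 (ENSG00000124570, chromosome 6, 2948159 to 2972165, minus strand) lies near SERPINB1 and encodes an intracellular inhibitor of trypsin-like proteases. Its level was 52.1, 45.4, 54.7 and 51.1 CPM with siYAP/TAZ#1, 50.6, 56.5, 55.4 and 52.7 CPM with siYAP/TAZ#2 and 56.6, 56.3, 55.6 and 55.4 CPM with siCo. The siYAP/TAZ#1 libraries were all below siCo, by as little as the gap between 54.7 and 55.4 CPM, and the siYAP/TAZ#2 libraries overlapped siCo. The log2 change was -0.14 ± 0.062 with siYAP/TAZ#1 (edgeR, adjusted p = 0.1002) and -0.06 ± 0.062 with siYAP/TAZ#2 (adjusted p = 0.530), and both signs turned positive when scaled by library size alone. Without siYAP/TAZ#2 replicate 1, which alters the shared estimate of spread, the siYAP/TAZ#1 change passed the test at -0.14 (edgeR, adjusted p = 0.0450).

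SERPINA1 (ENSG00000197249, chromosome 14, 94376747 to 94390693, minus strand) encodes alpha-1-antitrypsin, a plasma inhibitor of neutrophil elastase made mainly by hepatocytes. It had 3, 1, 1 and 0 estimated counts in the siYAP/TAZ#1 libraries, 2, 4, 11 and 1 in the siYAP/TAZ#2 libraries and 10, 0, 0 and 5 in the siCo libraries. The sums were 5 counts with siYAP/TAZ#1, 18 with siYAP/TAZ#2 and 15 with siCo, and zeros stood beside the highest values within siCo. A count of 0 allows up to 3 counts, which is 0.0784 to 0.101 CPM in these libraries and covers counting error only. SERPINA1 failed the filter on low counts, and a difference was not detectable at this depth.

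Of the 7 genes, 6 were tested. With siYAP/TAZ#1, 2 were called higher (PLAT, SERPINB1) and 2 lower (PLAU, PLAUR) at an adjusted p under 0.05, where 16.4% of all 21581 genes were called higher and 18.5% lower (34.9% in all). With siYAP/TAZ#2, 3 were called higher (PLAT, SERPINE2, SERPINB1) and 2 lower (PLAU, PLAUR), where 19.0% of all genes were higher and 19.2% lower (38.2% in all). Between the combinations, 0 were called higher and 3 lower with siYAP/TAZ#1 (PLAU, PLAUR, SERPINE2), where 6.92% of all genes were higher and 8.20% lower (15.1% in all). PLAT and SERPINB1 were called higher, and PLAU and PLAUR lower, with both combinations, as were 12.5% and 13.3% of all genes.

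Groups that did not overlap were also common, with 18.0% of all genes wholly above and 20.7% wholly below siCo in siYAP/TAZ#1, and 17.0% and 17.7% in siYAP/TAZ#2. Between the combinations these shares were 8.91% and 9.31%. The median log2 change of the 6 tested genes was -0.05 with siYAP/TAZ#1, 0.16 with siYAP/TAZ#2 and -0.17 between the combinations, against 0.02, 0.02 and -0.01 over all genes tested. Both comparisons use the same 4 siCo libraries, so their values are given side by side and not as independent evidence.

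**Figure D2:**
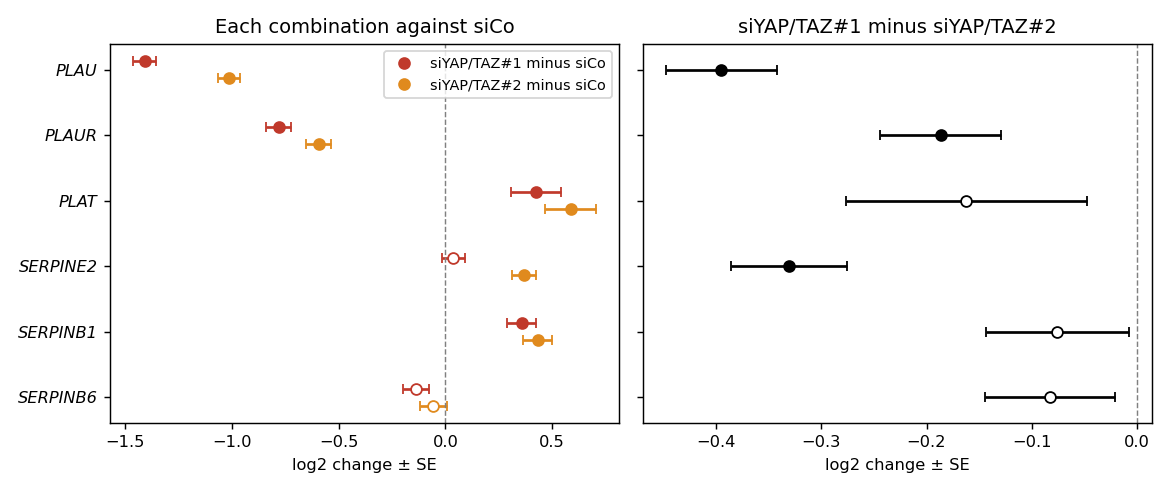
Log2 change ± SE (x axis) of the 6 tested genes, each combination minus siCo on the left and siYAP/TAZ#1 minus siYAP/TAZ#2 on the right. Filled points passed an adjusted p under 0.05 in edgeR and open points did not; PLAU lies lowest at -1.41 and -1.01.

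Ratios taken within a library do not depend on its scaling, and they traced the balance between ligand, receptor and inhibitor transcripts. PLAU over PLAUR in TPM was 1.11 ± 0.0421 with siYAP/TAZ#1, 1.26 ± 0.0779 with siYAP/TAZ#2 and 1.66 ± 0.0240 with siCo (SD, n = 4 each). The 3 ranges, 1.06 to 1.16 with siYAP/TAZ#1, 1.18 to 1.36 with siYAP/TAZ#2 and 1.64 to 1.69 with siCo, did not overlap. Transcripts of the ligand thus fell more than those of its receptor in both knockdown groups.

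SERPINE2 over PLAU, an inhibitor against its protease, was 1.69 ± 0.155 with siYAP/TAZ#1, 1.66 ± 0.286 with siYAP/TAZ#2 and 0.708 ± 0.0384 with siCo. Its ranges were 1.54 to 1.89 with siYAP/TAZ#1, 1.47 to 2.09 with siYAP/TAZ#2 and 0.652 to 0.736 with siCo, so the knockdown groups overlapped each other and both were clear of siCo. In estimated counts, which are not per length, the same ratio ran from 1.14 to 1.25 with siYAP/TAZ#1, from 1.09 to 1.23 with siYAP/TAZ#2 and from 0.426 to 0.468 with siCo. SERPINE2 transcripts outnumbered PLAU transcripts on either scale only in the knockdown groups.

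PLAT over PLAU, between the activators, averaged 0.0582 (0.0510 to 0.0663) with siYAP/TAZ#1, 0.0526 (0.0463 to 0.0585) with siYAP/TAZ#2 and 0.0178 (0.0149 to 0.0207) with siCo. Urokinase remained the more abundant activator transcript in all 12 libraries. SERPINB1 over SERPINB6, between the intracellular serpins, averaged 0.865 (0.746 to 0.949) with siYAP/TAZ#1, 0.803 (0.778 to 0.839) with siYAP/TAZ#2 and 0.618 (0.585 to 0.692) with siCo. These ratios of the knockdown libraries were also clear of those of siCo.

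**Figure D3:**
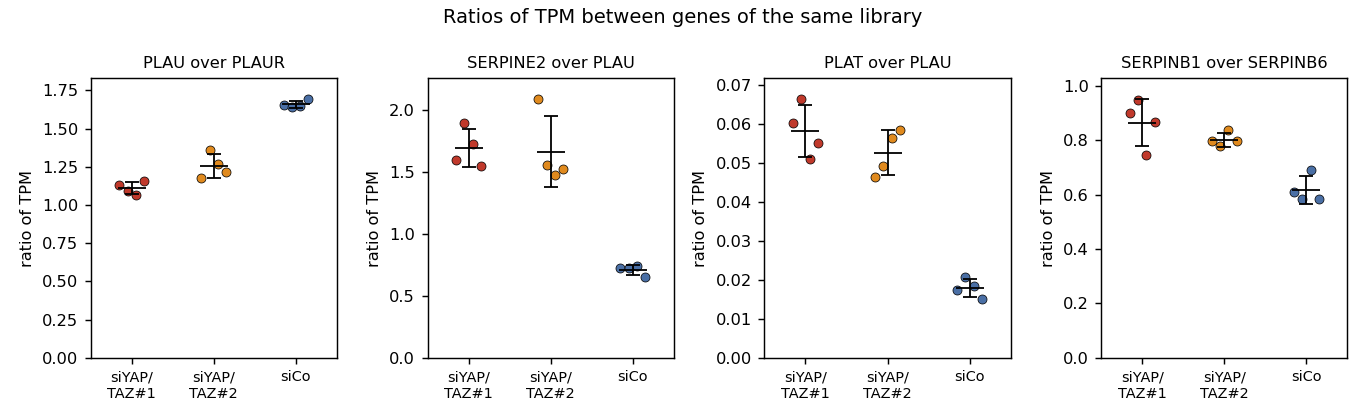
Ratio of TPM (y axis, linear from 0) between genes of the same library, by group on the x axis. Points are libraries and bars the mean ± SD of 4 libraries; SERPINE2 over PLAU lies above 1 in all 8 knockdown libraries and below 1 in all siCo libraries.

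Across the 12 libraries, which share the group differences above, log2 CPM of PLAU and PLAUR had a Pearson correlation of 0.985. PLAU with SERPINB1 gave -0.829, PLAU with PLAT -0.742 and PLAT with SERPINB1 0.833. SERPINE2 and SERPINB6 gave 0.0453. These values describe the 12 libraries and carry no test.

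Among 10969 other protein-coding genes of at least 5 CPM, those closest to PLAU over the 12 libraries were FRMD6 (r = 0.999), PTPN14 (r = 0.996), a phosphatase that binds YAP, and CDC42EP3 (r = 0.996). FRMD6 averaged 16.5 CPM with siYAP/TAZ#1, 21.7 CPM with siYAP/TAZ#2 and 47.2 CPM with siCo. The closest to PLAUR were TGM2, a transglutaminase (r = 0.993), STAT3 (r = 0.992) and CCN2, a widely used YAP target (r = 0.992). CCN2 averaged 2.71 CPM with siYAP/TAZ#1, 4.50 CPM with siYAP/TAZ#2 and 22.7 CPM with siCo, so a shared order of libraries went with a far larger difference than that of PLAUR.

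PLAT was closest to DUSP10 (r = 0.952), RAB13 (r = 0.939) and CPNE4 (r = 0.939), and SERPINB1 to GULP1 (r = 0.978), SENP2 (r = 0.975) and SLC16A4 (r = 0.974). SERPINE2 was closest to CASP10 (r = 0.972), NHLRC3 (r = 0.970) and KIFAP3 (r = 0.969), which like it had their highest mean in siYAP/TAZ#2. NHLRC3 averaged 7.80 CPM with siYAP/TAZ#1, 16.5 CPM with siYAP/TAZ#2 and 7.41 CPM with siCo. SERPINB6, which varied little between groups, had weaker companions in STEEP1 (r = 0.884), GTF2A1 (r = 0.860) and ABHD5 (r = 0.857).

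Genes that work with urokinase, its receptor or the serpins were read from lists, whose counts stand beside 16.4% higher and 18.5% lower of all genes with siYAP/TAZ#1, and 19.0% higher and 19.2% lower with siYAP/TAZ#2. On log2(TPM + 1), of the list genes that the naming rule picked, none called lower kept that call (limma), apart from VEGFA with siYAP/TAZ#2. ENO1 had positive values there with both combinations, PRSS23 with siYAP/TAZ#1, and SERPINB9, ITGAV and EGFR with siYAP/TAZ#2. On the same scale LRP1, SORL1, SERPINA6 and SERPINF2 lost their higher call with siYAP/TAZ#1, as did MMP7 with siYAP/TAZ#2.

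Of 16 genes for plasminogen and its binding or clearance partners, 15 were tested, with 4 called higher and 3 lower with siYAP/TAZ#1 and 4 higher and 5 lower with siYAP/TAZ#2. Over all alternatives run, the counts ran from 0 to 6 higher and from 0 to 3 lower with siYAP/TAZ#1, and from 2 to 6 higher and from 0 to 7 lower with siYAP/TAZ#2. The median log2 change was -0.01 with siYAP/TAZ#1 and -0.04 with siYAP/TAZ#2. LRP1, the endocytic receptor that clears urokinase bound to serpins, averaged 219 CPM with siYAP/TAZ#1, 299 CPM with siYAP/TAZ#2 and 179 CPM with siCo. Its log2 change was 0.28 ± 0.070 with siYAP/TAZ#1 (edgeR, adjusted p = 0.00441) and 0.74 ± 0.070 with siYAP/TAZ#2 (adjusted p = 4.96e-07). SORL1, a sorting receptor of the same family, rose by 0.30 with siYAP/TAZ#1 and 0.67 with siYAP/TAZ#2 on the log2 scale (edgeR, adjusted p = 0.00384 and 1.59e-06).

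F3, the gene of tissue factor, which starts coagulation, averaged 1.73 CPM with siYAP/TAZ#1, 1.78 CPM with siYAP/TAZ#2 and 3.94 CPM with siCo, a log2 change of -1.18 ± 0.15 with siYAP/TAZ#1 and -1.14 ± 0.15 with siYAP/TAZ#2 (edgeR, adjusted p = 9.87e-06 and 1.25e-05). ENO1, a glycolytic enzyme that also binds plasminogen at the cell surface, fell by 0.20 with siYAP/TAZ#1 and 0.30 with siYAP/TAZ#2 (edgeR, adjusted p = 0.00548 and 0.000199), a direction that turned positive on the deposited TPM. Outside the naming rule, S100A10 was lower and MRC2 higher with both. PLGRKT, a plasminogen receptor picked after its values were seen, changed by -0.03 with siYAP/TAZ#1 (edgeR, adjusted p = 0.885) and 0.56 with siYAP/TAZ#2 (adjusted p = 0.00116).

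Of 27 other serpin genes, 9 passed the filter on low counts. With siYAP/TAZ#1, 2 were higher and 2 lower, and with siYAP/TAZ#2 3 were higher and 1 lower, and the median log2 changes were -0.03 with siYAP/TAZ#1 and 0.01 with siYAP/TAZ#2. Over all alternatives run, the counts ran from 0 to 2 higher and from 0 to 3 lower with siYAP/TAZ#1, and from 3 to 3 higher and from 0 to 1 lower with siYAP/TAZ#2. SERPINF2, the gene of alpha-2-antiplasmin, the direct inhibitor of plasmin, averaged 2.86 CPM with siYAP/TAZ#1, 4.62 CPM with siYAP/TAZ#2 and 1.55 CPM with siCo. It rose by 0.87 ± 0.19 with siYAP/TAZ#1 (edgeR, adjusted p = 0.00202) and 1.56 ± 0.19 with siYAP/TAZ#2 (adjusted p = 6.28e-06), and less with siYAP/TAZ#1 by a difference of -0.70 ± 0.18 (adjusted p = 0.0120). SERPINA6, which encodes corticosteroid-binding globulin, rose by 1.86 with siYAP/TAZ#1 and 2.93 with siYAP/TAZ#2 (edgeR, adjusted p = 9.23e-05 and 4.17e-07) at levels of 1.22 CPM with siYAP/TAZ#1, 2.57 CPM with siYAP/TAZ#2 and 0.342 CPM with siCo.

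SERPINB8, an intracellular serpin, averaged 5.97 CPM with siYAP/TAZ#1, 11.4 CPM with siYAP/TAZ#2 and 12.9 CPM with siCo. It fell by 1.12 with siYAP/TAZ#1 (edgeR, adjusted p = 1.21e-06) and changed by -0.19 with siYAP/TAZ#2 (adjusted p = 0.205), where the sign turned with library size alone and on TPM, and the combinations differed by -0.93 ± 0.11 (adjusted p = 2.12e-05). SERPINB9, the inhibitor of granzyme B, changed by -0.21 with siYAP/TAZ#1 and -0.38 with siYAP/TAZ#2 (edgeR, adjusted p = 0.0722 and 0.00218), with signs that turned positive on the deposited TPM. SERPINH1, a collagen chaperone of the serpin fold picked after its values were seen, averaged 151 CPM with siYAP/TAZ#1, 283 CPM with siYAP/TAZ#2 and 220.1 CPM with siCo. Its log2 change was -0.54 with siYAP/TAZ#1 (edgeR, adjusted p = 0.000164) and 0.36 with siYAP/TAZ#2 (adjusted p = 0.00394), so both combinations moved it, in opposite directions.

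Of 22 trypsin-like proteases of the cell surface and secretory pathway, 13 were tested, with 4 higher and 1 lower with siYAP/TAZ#1 and 5 higher and 2 lower with siYAP/TAZ#2. Over all alternatives run, the counts ran from 3 to 5 higher and from 0 to 1 lower with siYAP/TAZ#1, and from 3 to 5 higher and from 0 to 3 lower with siYAP/TAZ#2. The median log2 change was 0.26 with siYAP/TAZ#1 and 0.15 with siYAP/TAZ#2. HABP2, a plasma protease that can activate pro-urokinase, averaged 8.71 CPM with siYAP/TAZ#1, 5.11 CPM with siYAP/TAZ#2 and 1.44 CPM with siCo. It rose by 2.60 ± 0.12 with siYAP/TAZ#1 (edgeR, adjusted p = 2.92e-10) and 1.83 ± 0.13 with siYAP/TAZ#2 (adjusted p = 1.35e-08).

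PROC, the gene of anticoagulant protein C, rose by 1.77 with siYAP/TAZ#1 and 1.83 with siYAP/TAZ#2 (edgeR, adjusted p = 6.63e-06 and 4.08e-06), and HGFAC, which activates hepatocyte growth factor, by 1.17 with siYAP/TAZ#1 and 1.41 with siYAP/TAZ#2 (adjusted p = 0.00281 and 0.000532). PROC, HABP2 and HGFAC are known as liver transcripts, and the hepatocyte sum was 2.85 to 4.62 CPM with siYAP/TAZ#1, 2.87 to 5.35 CPM with siYAP/TAZ#2 and 1.99 to 2.48 CPM with siCo, carried by APOH, while ALB, APOA2 and TTR averaged under 1 CPM. The part of hepatocyte-type expression in these results was not tested. PRSS23, a secreted protease, averaged 152 CPM with siYAP/TAZ#1, 94.2 CPM with siYAP/TAZ#2 and 196 CPM with siCo. It fell by 0.37 with siYAP/TAZ#1 and 1.06 with siYAP/TAZ#2 (edgeR, adjusted p = 7.69e-05 and 9.20e-10), and the change with siYAP/TAZ#1 turned positive on the deposited TPM.

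Of 20 other protease inhibitors, 13 were tested, with 2 higher and 1 lower with siYAP/TAZ#1 and 3 higher and 1 lower with siYAP/TAZ#2. With siYAP/TAZ#1 the counts ran from 1 to 3 higher and from 0 to 3 lower over all alternatives run. With siYAP/TAZ#2 they ran from 2 to 6 higher and from 0 to 2 lower. The median log2 change was 0.06 with siYAP/TAZ#1 and 0.08 with siYAP/TAZ#2. The count lower with siYAP/TAZ#1 was 2 without siYAP/TAZ#1 replicate 2 and 3 without siYAP/TAZ#2 replicate 1, and that with siYAP/TAZ#2 was 2 without siYAP/TAZ#2 replicate 1. TFPI2, a Kunitz inhibitor of plasmin and related proteases, averaged 31.9 CPM with siYAP/TAZ#1, 29.02 CPM with siYAP/TAZ#2 and 57.2 CPM with siCo. It fell by 0.84 ± 0.063 with siYAP/TAZ#1 (edgeR, adjusted p = 4.17e-08) and 0.98 ± 0.064 with siYAP/TAZ#2 (adjusted p = 7.00e-09). SPINT1, the inhibitor of matriptase and HGFAC, rose by 1.88 with siYAP/TAZ#1 and 1.80 with siYAP/TAZ#2 from a low level of 0.282 CPM in siCo (edgeR, adjusted p = 0.000470 and 0.000666).

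Metalloprotease inhibitors were among the same list. TIMP4 rose by 0.52 with siYAP/TAZ#1 and 0.92 with siYAP/TAZ#2 (edgeR, adjusted p = 8.60e-05 and 1.60e-07). RECK, an inhibitor anchored to the membrane, changed by 0.05 with siYAP/TAZ#1 (edgeR, adjusted p = 0.812), a sign that turned without siYAP/TAZ#1 replicate 4 (-0.06) or siCo replicate 2 (-0.04). It rose by 0.66 with siYAP/TAZ#2 (adjusted p = 0.000268), and the combinations differed by -0.62 ± 0.12 (adjusted p = 0.00122).

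Of 12 metalloproteases and growth factors that plasmin or urokinase can activate, 8 were tested, and 2 were higher and 1 lower with each combination, with median log2 changes of 0.21 with siYAP/TAZ#1 and -0.02 with siYAP/TAZ#2. Without siYAP/TAZ#2 replicate 1, the count lower with siYAP/TAZ#1 was 2. Across all alternatives run, the counts ran from 0 to 4 higher and from 0 to 2 lower with siYAP/TAZ#1. They ran from 1 to 3 higher and from 0 to 1 lower with siYAP/TAZ#2. MMP7, matrilysin, averaged 21.1 CPM with siYAP/TAZ#1, 13.7 CPM with siYAP/TAZ#2 and 10.1 CPM with siCo, and rose by 1.06 ± 0.12 with siYAP/TAZ#1 and 0.43 ± 0.12 with siYAP/TAZ#2 (edgeR, adjusted p = 4.82e-06 and 0.0107). MST1, the gene of macrophage-stimulating protein, rose by 0.70 with siYAP/TAZ#1 and 1.11 with siYAP/TAZ#2 (edgeR, adjusted p = 0.00962 and 0.000218).

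VEGFA, the endothelial growth factor, averaged 35.9 CPM with siYAP/TAZ#1, 27.7 CPM with siYAP/TAZ#2 and 66.1 CPM with siCo, and fell by 0.88 with siYAP/TAZ#1 and 1.25 with siYAP/TAZ#2 (edgeR, adjusted p = 8.98e-08 and 1.62e-09). MMP2, a gelatinase, changed by 0.26 with siYAP/TAZ#1 and 0.27 with siYAP/TAZ#2 (edgeR, adjusted p = 0.102 and 0.0857). ELANE, PRTN3, CTSG and AZU1, listed as neutrophil genes of the serine protease family, were close to absent. Of these, 2 of 4 passed the filter (PRTN3 and AZU1), and none reached 1 CPM in any group. The median log2 change of those 2 was 0.82 with siYAP/TAZ#1 and 0.55 with siYAP/TAZ#2. PRTN3, named because it was the single call, was called higher with both, and the call with siYAP/TAZ#2 was lost without siYAP/TAZ#2 replicate 2, siCo replicate 1 or siCo replicate 3, where the count was 0. Across all alternatives run, the count higher in this list ran from 0 to 1 with each combination.

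Of 12 partners of the urokinase receptor, 10 were tested, with 1 higher and 5 lower with siYAP/TAZ#1 and 1 higher and 6 lower with siYAP/TAZ#2. Over all alternatives run, the counts ran from 0 to 3 higher and from 0 to 6 lower with siYAP/TAZ#1, and from 1 to 3 higher and from 0 to 6 lower with siYAP/TAZ#2. The median log2 change was -0.25 with siYAP/TAZ#1 and -0.17 with siYAP/TAZ#2. The count higher with siYAP/TAZ#1 was 0 without siYAP/TAZ#1 replicates 2 or 3 or siCo replicates 2, 3 or 4, and that with siYAP/TAZ#2 was 2 without siCo replicate 1. That member was VTN, the gene of vitronectin, named after its values were seen, which averaged 5.31 CPM with siYAP/TAZ#1, 8.21 CPM with siYAP/TAZ#2 and 4.23 CPM with siCo. VTN rose by 0.33 ± 0.11 with siYAP/TAZ#1 (edgeR, adjusted p = 0.0252) and 0.95 ± 0.10 with siYAP/TAZ#2 (adjusted p = 2.27e-06). ITGA3 and ITGA5, integrin subunits outside the naming rule, were lower with both. EGFR, the growth factor receptor through which the urokinase receptor can signal, averaged 441 CPM with siYAP/TAZ#1, 485 CPM with siYAP/TAZ#2 and 635 CPM with siCo. It fell by 0.52 ± 0.047 with siYAP/TAZ#1 and 0.39 ± 0.046 with siYAP/TAZ#2 (edgeR, adjusted p = 2.70e-07 and 5.62e-06), the change with siYAP/TAZ#2 turning positive on the deposited TPM.

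ITGAV and ITGB3 form a receptor for vitronectin, a matrix protein that the urokinase receptor also binds. ITGAV averaged 87.8 CPM with siYAP/TAZ#1, 159 CPM with siYAP/TAZ#2 and 182 CPM with siCo, and fell by 1.05 with siYAP/TAZ#1 (edgeR, adjusted p = 9.50e-10) and by 0.19 with siYAP/TAZ#2 (adjusted p = 0.0117), and the change with siYAP/TAZ#2 turned positive on the deposited TPM. ITGB3 changed by -0.16 with siYAP/TAZ#1 (edgeR, adjusted p = 0.173), where the sign turned with library size alone, and fell by 0.87 with siYAP/TAZ#2 (adjusted p = 8.03e-07). The combinations differed by -0.86 for ITGAV and 0.72 for ITGB3 (edgeR, adjusted p = 1.55e-08 and 1.85e-05), so each lowered a different subunit more. CAV1, the caveola protein found in complexes with the receptor, fell by 0.60 with siYAP/TAZ#1 and 0.66 with siYAP/TAZ#2 (edgeR, adjusted p = 3.86e-05 and 1.29e-05).

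**Figure D4:**
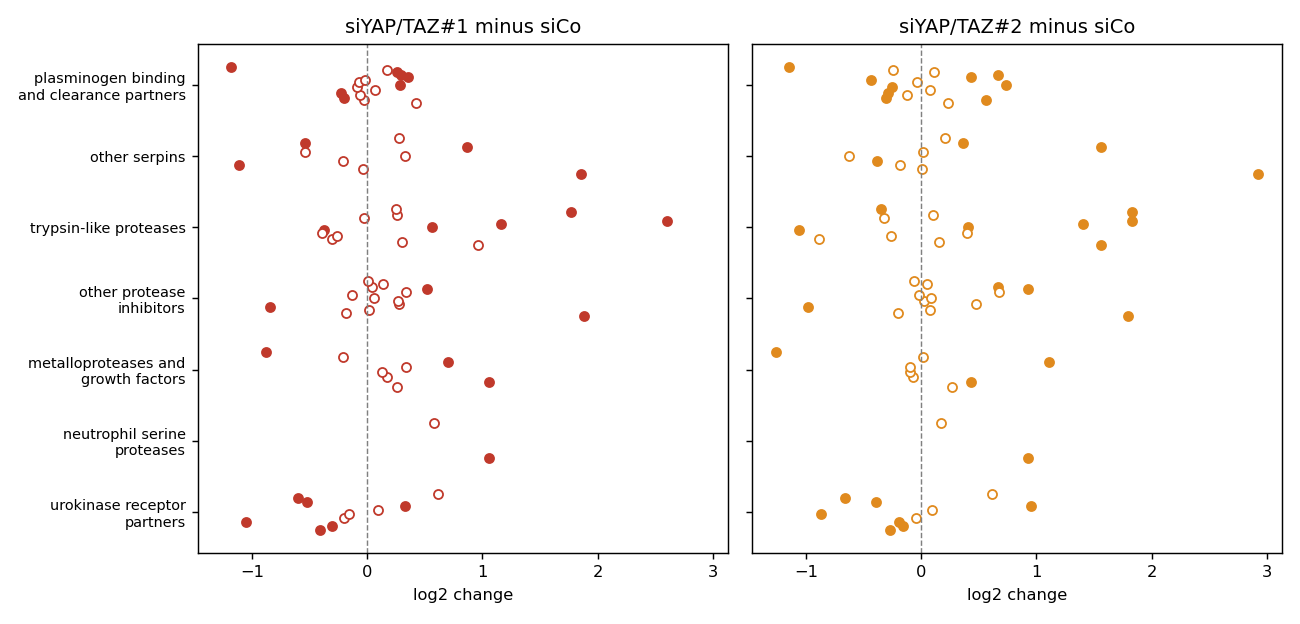
Log2 change (x axis) of every tested gene of the 7 related lists (rows), siYAP/TAZ#1 minus siCo on the left and siYAP/TAZ#2 minus siCo on the right. Filled points passed an adjusted p under 0.05 in edgeR and open points did not; most filled points of the urokinase receptor partners lie below 0.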

How the data were processed

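The authors deposited, for each of the 12 libraries, a table of estimated counts and a table of TPM over the same 60617 Ensembl genes. Kallisto 0.4.6, Trim Galore 0.6.4 and the genome GRCh38.p13 are listed in the submitters' processing notes, where their roles are left unsaid. How transcripts were summed to genes is not given in the sources used here. Gene types and coordinates are those of GENCODE v29, which held 58444 of the identifiers.

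Rounded estimated counts went into edgeR 4.0.16 (R 4.3.3). Genes were kept by filterByExpr at default settings, scaled by TMM and fitted to all 12 libraries with group alone in the model, with a quasi-likelihood F test and Benjamini-Hochberg adjustment over 21581 genes. A gene was called at an adjusted p under 0.05. Alternatives used DESeq2 1.42.0, limma 3.58.1 on log2(TPM + 1) or log2(TPM + 0.1), other scalings and filters, and leaving out each library.

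Protein-coding genes took 28.2% to 57.6% of the deposited TPM and 6 short loci took 27.3% to 64.7%. TPM levels were therefore compared within libraries, or rescaled to the coding total. Deposited TPM without rescaling was compared between groups only as an alternative to the main test. Totals ran from 29.6 to 38.3 (in 1e6) estimated counts, and libraries of a group differed by more than sampling noise (chi-square per degree of freedom 3.63 to 72.7). The 7 genes, the related lists and the tests were chosen with earlier results of these data known. Named were all 7 genes, up to 4 genes of each list with the smallest adjusted p for the mean of both combinations against siCo and at least 1 CPM in a group, and the 3 coding genes most correlated with each of the 7. HGFAC, PROC, SPINT1 and SERPINA6 reached 1 CPM only in knockdown groups, so the rule favoured rises among such low genes.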

Additional observations from a re-analysis of the deposited data

Results flagged for a closer look

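In the siCo group, PLAT had 1 library far from the others: replicate 2 at 5.24 CPM, against 4.01 to 4.10 CPM in the other libraries, a gap of more than 0.829 of the whole range. With 21 groups examined, chance alone gives such a gap in about 1 of 20. Without that library the log2 change of PLAT was 0.52 with siYAP/TAZ#1 and 0.69 with siYAP/TAZ#2.

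The effects of siYAP/TAZ#1 and siYAP/TAZ#2 differed for PLAU by -0.40, for PLAUR by -0.19 and for SERPINE2 by -0.33 on the log2 scale, each tested in edgeR (adjusted p = 4.79e-05, 0.0393 and 0.000412). The PLAUR call was lost with the replicate number as a block (0.0649) and without any 1 of 6 libraries (edgeR, adjusted p up to 0.122), and all 3 calls were lost on log2(TPM + 1). For PLAU, PLAUR and SERPINE2 every siYAP/TAZ#1 library lay below every siYAP/TAZ#2 library, as for 9.31% of all genes. For PLAUR the nearest libraries almost met, at 37.998 CPM with siYAP/TAZ#1 and 38.06 CPM with siYAP/TAZ#2. On counts, the remaining levels of YAP1 and WWTR1 differed by 0.11 and 0.02 between the combinations (edgeR, adjusted p = 0.367 and 0.897). In TPM rescaled to coding genes, WWTR1 averaged 47.6 ± 2.23 with siYAP/TAZ#1 and 37.1 ± 5.17 with siYAP/TAZ#2 (SD, n = 4 each). Those libraries did not overlap.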

How the results depend on the processing

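Of the 6 tested genes, PLAU, PLAUR, PLAT, SERPINE2 and SERPINB1 kept the direction of their change in every comparison and alternative run, and 9 alternative values, all of SERPINB6, reversed. SERPINB6 with siYAP/TAZ#1 was 0.038 with library size alone, 0.17 and 0.18 on log2(TPM + 1) and log2(TPM + 0.1) and 0.17 with no filter. With siYAP/TAZ#2 it was 0.13, 0.41, 0.42 and 0.41, and 0.13 on coding-rescaled TPM, an alternative added after seeing the data. Its log2 ratio of mean deposited TPM was 0.18 and 0.43. In limma on log2(TPM + 1), log2(TPM + 0.1) and with no filter, the genes called with siYAP/TAZ#1 were 0, 0 and 0 higher and 1, 1 and 0 lower. Those lower were 0, 0 and 0 with siYAP/TAZ#2 and 0, 0 and 0 between the combinations, and with no filter 1 was higher with siYAP/TAZ#2. Leaving out each library gave 2 to 2 higher and 2 to 3 lower with siYAP/TAZ#1, 3 to 3 and 2 to 2 with siYAP/TAZ#2, and 0 to 0 and 2 to 3 between the combinations.

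Among list genes, the 3 TPM fits in that order gave ENO1 0.15, 0.15 and 0.15 with siYAP/TAZ#1 and 0.13, 0.13 and 0.13 with siYAP/TAZ#2. SERPINB9 gave 0.14, 0.16 and 0.14 with siYAP/TAZ#1 and 0.054, 0.053 and 0.054 with siYAP/TAZ#2. PRSS23 with siYAP/TAZ#1 gave 0.027, 0.028 and 0.027. With siYAP/TAZ#2, EGFR gave 0.054, 0.054 and 0.054, ITGAV 0.33, 0.34 and 0.33 (0.051 on coding-rescaled TPM), and SERPINB8 0.25, 0.29 and 0.25 (0.0065 on coding-rescaled TPM and 0.0041 with library size alone). ITGB3 with siYAP/TAZ#1 was 0.020 with library size alone. RECK with siYAP/TAZ#1 was -0.061 without siYAP/TAZ#1 replicate 4 and -0.044 without siCo replicate 2. Of the other alternative values of list genes, 65 lost their call, 7 gained one and 994 kept their side of the threshold. The cause of these changes was not tested.

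Library size alone moved the median of all genes to 0.20 and 0.21 with siYAP/TAZ#1 and siYAP/TAZ#2, and log2(TPM + 1) to 0.26 and 0.33, against 0.02 and 0.02 after TMM. Of all calls, 46.9% and 49.7% were higher after TMM, 75.5% and 76.2% without TMM factors, and 90.3% and 93.8% on log2(TPM + 1). Among list genes picked by the naming rule, library size alone cost ENO1 its call with both combinations (-0.03 and -0.12). ITGAV (-0.002) and SERPINB9 (-0.19) lost theirs with siYAP/TAZ#2, and MMP2 gained a call with both combinations (0.43 and 0.45). With no filter on low counts, ENO1 lost its call with siYAP/TAZ#1 and ITGAV with siYAP/TAZ#2 (edgeR, adjusted p = 0.0704 and 0.0764).

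Same-numbered libraries did not deviate together in every pair: correlations of their deviations ran from -0.298 to 0.406, and the own number was best in 6 of 12 pairs. Replicate 4 was best matched by its own number in all 3 pairs of groups (0.321, 0.273 and 0.406), and replicate 1 was also positive (0.0925, 0.106 and 0.103), a hint from the data and not the design. With the replicate number as a block, PLAUR between the combinations was -0.19 (edgeR, adjusted p = 0.0649), and no other call of the 7 genes changed. Depth limits SERPINA1, at 0 to 11 estimated counts a library.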

Other observations

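SERPINE2 gave different orders of the siYAP/TAZ#2 libraries in CPM and in TPM rescaled to coding genes. Replicate 1 had the lowest CPM of that group, 127, and the highest rescaled TPM, 194, while its deposited TPM, 64.7, was also the lowest of the group. Counts per unit of TPM, set to 1 for the siCo mean, ran from 0.977 to 1.16 with siYAP/TAZ#1, from 0.828 to 1.26 with siYAP/TAZ#2 and from 0.933 to 1.11 with siCo. For PLAU they ran from 0.915 to 0.977 with siYAP/TAZ#1, from 0.953 to 1.00 with siYAP/TAZ#2 and from 0.999 to 1.00 with siCo. PLAUR gave 0.970 to 0.996 with siYAP/TAZ#1, 0.965 to 0.996 with siYAP/TAZ#2 and 0.990 to 1.01 with siCo.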
